A study of Mus musculus with 30 samples.

Results

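The transcriptome of brain from wild-type newborn mice was compared with that of 4 other organs of wild-type newborns. The brain was represented by 3 Affymetrix MOE430A arrays, all those titled wild type and brain among the 30 arrays of the series. They were set against 12 wild-type arrays, 3 each of kidney, stomach, liver and salivary tissue, so that 15 arrays entered the comparison. All 15 came from untreated neonatal mice of mixed SV129/C57BL/6 background, of a sex given as unknown, kept on standard chow, and RNA was total RNA extracted with Trizol. The other 15 arrays of the series, from mice without the nuclear receptor ERRγ (gene Esrrg), took no part in the comparison. They are cited as a second set of the same 5 tissues. They also enter a test, given at the end, of whether the brain contrast differed between genotypes. Replicate brains are not said to be from separate animals, so the p-values cover only array-to-array variation within a tissue, part of which may be technical. Values are log2 MAS5 signals, in which a difference of 1 is 2-fold, and with 3 arrays per tissue it is the number of arrays that limits precision. Which region of the brain was taken is not stated, and in a tissue homogenate fewer cells of a type and less RNA per cell cannot be told apart.

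The newborn mouse brain is still being built. Most of its neurons have left the cell cycle and are extending axons and forming their first synapses, glial cells are starting to be produced from radial glia, and myelin has hardly begun to form. Neurons are known for a large set of genes that other organs keep silent, among them those for synaptic vesicle proteins, neuron-specific tubulins and stathmins, and splicing regulators that replace the forms used elsewhere. Newborn liver is also a site of blood formation, and the newborn kidney, stomach and salivary gland are epithelial organs that are still growing.

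The arrays carried the tissue named on their labels. Snap25, which encodes a membrane-fusion protein of the synapse, read 9.89, 9.91 and 10.26 on the brain arrays and -1.76 to 6.56 (median 2.70) on the 12 others. The linear signals of 8 neuronal marker genes summed to 10200 to 10834 on the brain arrays and to at most 745 elsewhere, and all 8 were above the background level of 5.36, the 40th percentile of all values. Markers of the other organs were low in brain: 4 hepatocyte genes summed to 59.9 to 94.7 against 31497 to 34854 in liver, 3 salivary genes to 33.1 to 45.6 against 11589 to 12885 in salivary tissue, and 3 kidney genes to 214 to 313 against 3899 to 5477 in kidney. The sum of 4 gastric genes was 713 to 766 in brain and 11123 to 12148 in stomach. Erythroid marker genes summed to 42.6 to 56.1 in brain, with 0 of 3 above background, against 1478 to 1707 in liver. The liver sum came mostly from Alas2, at 10.46 to 10.67. Hba-a1 and Hbb-bh1 read only 5.19 to 6.30 and 4.83 to 5.37 in liver, so the sum does not gauge the amount of blood in a sample. Array medians lay between 5.83 and 6.03, brain replicates correlated with each other at 0.971 to 0.976 across the probe sets tested, and the median SD of a probe set over the 3 brain arrays was 0.15. The difference between the 3' and the 5' Gapdh control probe sets, which widens with RNA degradation, was 2.55 to 2.97 in brain, 2.28 to 3.11 in kidney and stomach, 3.02 to 3.38 in salivary tissue and 4.25 to 4.81 in liver. Among the other organs, Alb, which encodes serum albumin, read 5.93, 10.25 and 11.90 on the 3 stomach arrays, and Ucp1, the uncoupling protein of brown fat, read 5.99, 4.04 and 12.14 on the 3 salivary arrays. Without the salivary array of high Ucp1, 1315 probe sets in place of 1324 were higher in brain than in each other tissue and 893 in place of 918 lower.

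A large share of the measured genes set the brain apart. Of 16753 probe sets above background in at least 1 tissue, 2434 or 14.5% were higher in brain than in the mean of the 4 other tissues and 2682 or 16% lower, at an adjusted p under 0.05 in limma and a difference of at least 2-fold. The differences reached 16-fold for 288 of those higher and 148 of those lower. Against kidney alone, 12.3% were higher and 15.3% lower. Against stomach, 14.4% were higher and 16% lower, and against salivary tissue, 15.6% were higher and 15.4% lower. Against liver the shares were 22.4% higher and 17.3% lower, with the wider Gapdh difference of the liver arrays beside them. With that difference as a covariate the calls against liver numbered 2988 higher and 2235 lower, in place of 3747 and 2903. The liver arrays, at 4.25 to 4.81, lay outside the range of all others, which reached 3.38. The covariate can thus hardly be told apart from the tissue, and the fall in calls does not measure an effect of RNA degradation. The correlation of mean profiles with brain, over the 16753 probe sets as a description, was 0.708 for kidney, 0.692 for salivary tissue, 0.664 for stomach and 0.514 for liver.

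Probe sets higher in brain than in each of the 4 other tissues numbered 1324, or 7.90%, from 936 named genes. Those lower than in each numbered 918, or 5.48%, from 709 named genes. The 4 comparisons behind these counts share the 3 brain arrays. For 1320 of the 1324 higher probe sets and 869 of the 918 lower ones, no brain array overlapped any of the other 12. A call against each tissue already needs a 2-fold difference and a small adjusted p, which leaves little room for overlap. These overlap counts are therefore not a separate check of the calls, and the same count over all probe sets tested is not given. In the arrays without Esrrg, which are other samples of the same tissues, 1101 or 83.2% of the higher probe sets were called higher than in each tissue as well, and 564 or 61.4% of the lower ones lower. Brain replicate 1 of those arrays stood apart, with the pituitary growth hormone gene Gh at 11.31 against 4.90 and 4.73 on its fellow brain arrays, the muscle actin gene Acta1 at 8.92 against 5.38 and 4.56, and the collagen gene Col1a2 at 11.08 against 9.44 and 9.60. Without it the shares were 1068 or 80.7% and 591 or 64.4%. The salivary arrays without Esrrg read 11.31, 12.75 and 11.02 for Ucp1, the uncoupling protein of brown fat, and its part in these shares was not tested.

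**Figure D1:**
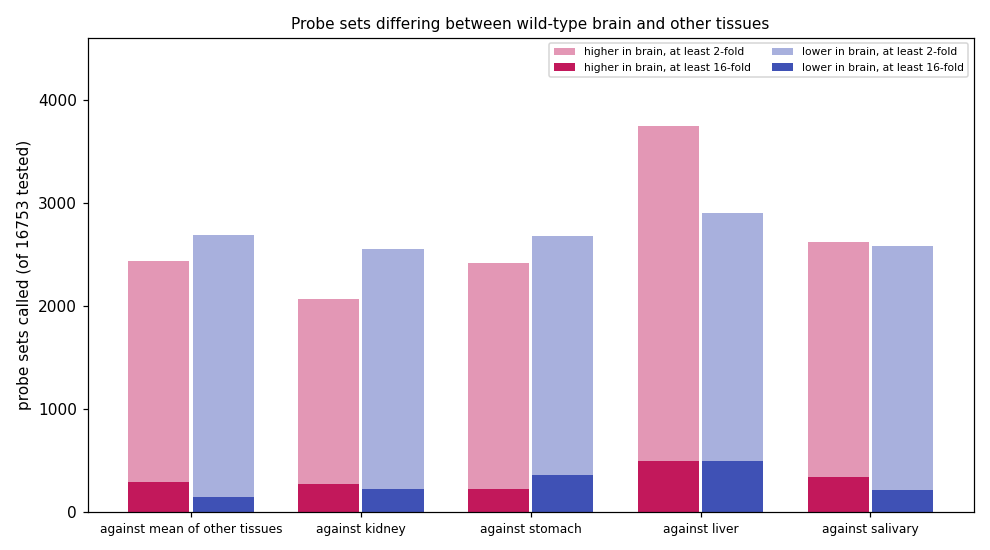
Number of probe sets called higher (red) or lower (blue) in the 3 wild-type brain arrays than in the mean of the 4 other tissues and than in each of them, of 16753 tested. Pale bars are calls of at least 2-fold and dark bars those of at least 16-fold, and the tallest bar is the 3747 probe sets higher in brain than in liver.

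Genes of young neurons were among those that stood highest above all other tissues. Among the 25 with the widest gap between brain and the next tissue were the neuronal RNA-binding protein gene Elavl2, the microtubule genes Dcx, Tubb3 and Mapt, and the stathmin genes Stmn3 and Stmn4, which regulate tubulin assembly. Growth cone and axon genes among them were Gap43, Crmp1 and the axonal kinesin gene Kif5c. Dcx, doublecortin, a microtubule protein of migrating neurons, read 11.31, 11.17 and 11.10 in brain and 5.22 to 6.43 (median 6.14) elsewhere. Its difference from the mean of the other tissues was 5.21 (SE 0.10, limma adjusted p = 1.05e-14). Tubb3, the neuron-specific beta tubulin, read 10.02, 10.10 and 10.05 in brain and 0.30 to 4.96 (median 3.02) elsewhere, a difference of 7.17. The 25 were ranked only among genes called higher in brain than in each tissue with no overlap of arrays. Elavl2, by the probe set with its widest gap, read 10.40, 10.44 and 10.31 in brain and -0.66 to 5.28 (median 2.96) elsewhere. The 4 other Elavl2 probe sets did not all show this: 3 were called higher as well, while the brightest over the 15 arrays read 6.79, 6.69 and 6.53 in brain and 5.95 to 6.75 elsewhere.

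Several of these 25 genes belong to glia, progenitors or membrane transport. Olig1, a transcription factor of the oligodendrocyte lineage, read 9.95, 9.94 and 9.95 in brain and 1.75 to 4.63 (median 3.96) elsewhere. Fabp7, the brain fatty acid binding protein of radial glia, read 11.60, 11.66 and 11.68 and 2.96 to 7.66 (median 5.19). Ptgds, the prostaglandin D synthase of meninges and choroid plexus, read 10.23, 10.30 and 10.29 and 2.87 to 5.30 (median 4.68). As for all of the 25, a call against each tissue and no overlap of arrays were conditions of the choice. Slc4a10, a sodium-dependent bicarbonate transporter of neurons and choroid plexus, read 9.64, 9.41 and 9.51 in brain and did not pass 2.94 on any other array. Zic1, a transcription factor of the dorsal neural tube and cerebellum, read 10.16, 9.89 and 10.19 and 3.36 to 4.80 (median 4.18) elsewhere. The remaining members were Dner, Gpm6a, Gdap1, Myt1l, Pkia, Mapk10, Celf4, Vsnl1, Gad1, Nap1l5 and Rbfox1, whose gap to the highest other tissue, with values under 5.36 raised to it, lay between 4.19 and 5.02.

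**Figure D2:**
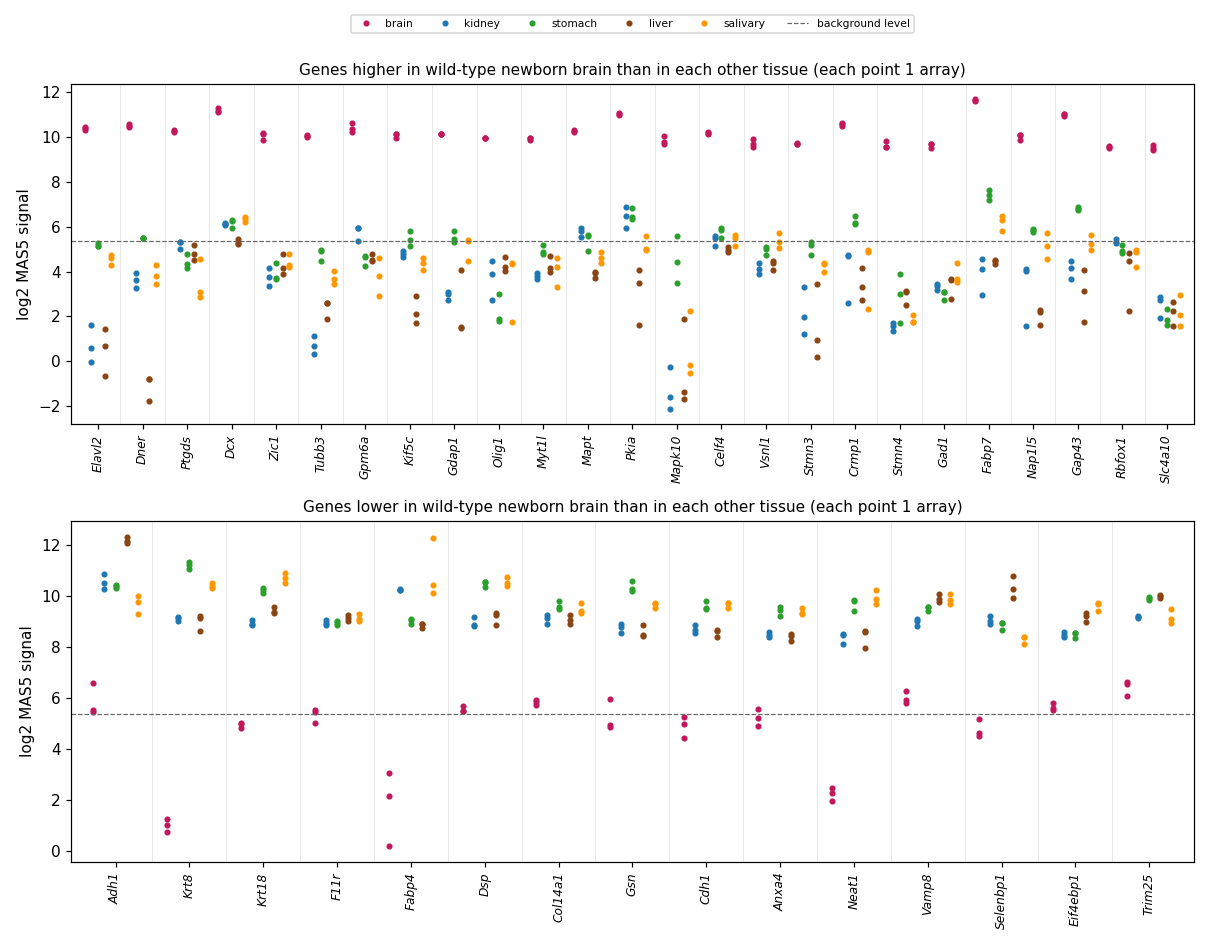
Log2 MAS5 signal of the 25 genes highest above (top) and the 15 genes lowest below (bottom) the other tissues in wild-type newborn brain. Each point is 1 array, colours are tissues and the dashed line is the background level of 5.36, under which values carry no order. All 3 brain points (red) lie clear of the 12 others for each gene, which was a condition for being shown.

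The vesicle release machinery was already raised at birth. Of 30 measured genes of the synaptic vesicle and its release, 25 were higher in brain than in the mean of the other tissues, 1 was lower, and 21 were higher than in each tissue. Over all 12393 measured genes, each taken by its brightest probe set, 11.3% were higher and 14.5% lower, and the median difference was 0.01, against 2.28 for this list. Of the 12393, 765 were higher and 591 lower than in each tissue. Snap25 differed by 7.57 (SE 0.67, limma adjusted p = 7.7e-08), though its values in kidney, liver and salivary tissue were under background, and counted from that level it stood 3.61 above stomach. Syt4, a synaptotagmin, read 9.03, 9.03 and 9.10 in brain and 4.07 to 4.98 (median 4.48) elsewhere. Rab3a, the small G protein of vesicles, read 8.52, 8.57 and 8.69 and Pclo, the scaffold protein piccolo of the release site, read 8.87, 8.72 and 8.82, against highest other arrays of 6.10 and 6.03. The fusion protein gene Stx1a, syntaxin, was well above background everywhere, at 10.49, 10.56 and 10.45 in brain and 7.17 to 8.26 (median 7.86) elsewhere, a difference of 2.66. Syp, which encodes the vesicle protein synaptophysin, read 7.59, 7.48 and 7.19 in brain and 4.86 to 6.53 (median 5.58) elsewhere. The single lower member was Sypl, a relative of synaptophysin made in many tissues, at 7.70, 7.72 and 7.90 in brain and 8.53 to 10.49 (median 9.75) elsewhere, a difference of -1.82.

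Genes of inhibitory transmission were raised in brain. Of 16 measured genes of GABA and glycine signalling, 10 were higher in brain and none was lower, with a median of 1.67. All 10 were higher than in each tissue. Gad1, glutamate decarboxylase, which makes GABA, read 9.71, 9.52 and 9.68 in brain and 2.75 to 4.38 (median 3.39) elsewhere, a difference of 6.26 (SE 0.23, limma adjusted p = 4.89e-12). Slc32a1, which loads GABA and glycine into vesicles, read 8.10, 8.09 and 8.23 against 0.52 to 3.85 (median 1.57). The other arrays were below background for both genes. The receptor subunit genes Gabra2 and Gabrb1 read 6.64 ± 0.13 and 9.15 ± 0.11 (SD, n = 3), and the glycine receptor gene Glrb read 7.43 ± 0.24. Their highest other tissue means were 1.85 in liver, 5.17 in stomach and 4.50 in salivary tissue.

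Of 26 measured genes of glutamate receptors and the postsynaptic density, 15 were above background in any tissue and 9 were higher in brain, none lower. Gria1, an AMPA receptor subunit, read 8.54, 7.96 and 8.38 in brain and 3.39 to 4.75 (median 4.28) elsewhere, and Gria2 read 8.36, 9.07 and 8.58 and 5.44 to 6.88 (median 6.14). The kainate receptor gene Grik1 read 7.27, 7.31 and 7.41 against at most 4.38 elsewhere. Camk2b, a subunit of a calcium-dependent kinase of synapses, read 7.77, 7.87 and 8.35 in brain, a difference of 3.67 from the other tissues. Its partner subunit Camk2a, abundant in the adult forebrain, read 0.43, 1.19 and -0.35 and was not above background in any tissue by this probe set. Grin2b, an NMDA receptor subunit, read 5.56, 5.71 and 5.20 in brain and 3.65 to 6.23 (median 5.17) elsewhere and was not called (limma adjusted p = 0.342). A Camk2a reading under background does not show that its transcript was absent, and the Grin2b brain readings lay close to the background level.

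Of 45 measured genes of monoamine, acetylcholine and neuropeptide signalling, 18 were higher in brain and none lower. Resp18, a protein of secretory granules, read 7.84, 8.12 and 8.20 in brain and -0.26 to 3.57 (median 0.40) elsewhere. Scg3, a granin, read 9.61, 9.68 and 9.59 and 1.04 to 5.82 (median 3.22), and Pcsk1n, which encodes an inhibitor of prohormone processing, read 8.81, 8.66 and 8.52 and 2.61 to 4.78 (median 3.55). All 3 were higher in brain than in each tissue. Among peptide genes, Npy stood at 9.15 ± 0.04 in brain (SD, n = 3), Cck at 7.90 ± 0.20 and Sst at 8.32 ± 0.10, each higher than in every other tissue. Stomach, which has its own neurons and endocrine cells, came closest for Sst at 6.59, for the granin gene Chgb at 7.03 against 9.34 ± 0.10 in brain, and for Chga at 7.16 against 8.24 ± 0.11. Tac1, the substance P gene, higher than the mean of the other tissues but not than each, overlapped between the tissues, with 8.48, 8.59 and 8.45 in brain and a mean of 7.92 in stomach. Penk, the enkephalin gene, read 7.63, 7.58 and 7.06 in brain and 9.98 on average in kidney, and Vip read 5.85, 5.71 and 5.49 in brain and 8.64 in stomach.

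Of 35 measured genes of voltage-gated channels and excitability, 22 were higher in brain and none lower, with a median of 1.60. The sodium channel genes Scn2a, Scn1a and Scn3b read 7.94 ± 0.14, 7.05 ± 0.12 and 9.70 ± 0.06 in brain (SD, n = 3) against 4.23 in stomach, 2.06 in liver and 6.11 in stomach. Kcnd2, a potassium channel of dendrites, read 9.12, 9.24 and 9.50 in brain and 1.48 to 5.86 (median 4.20) elsewhere. The calcium-binding protein gene Calb2, calretinin, read 8.52, 8.72 and 8.46 in brain and at most 3.81 elsewhere, while Calb1, calbindin, read 8.80, 8.79 and 8.77 in brain and was higher still in kidney, at 10.70. Chloride cotransporters, whose balance sets the response of neurons to GABA, were read in whole tissues, so the balance within neurons was not measured. Slc12a5, the neuronal chloride extruder KCC2, read 10.30, 10.61 and 10.64 in brain and 5.75 to 6.60 (median 6.11) elsewhere, a difference of 4.36 (SE 0.14, limma adjusted p = 1.42e-12). Slc12a2, the chloride importer NKCC1, read 8.67, 8.46 and 8.34 in brain and 6.70 to 11.38 (median 9.42) elsewhere, a difference of -0.77 that did not reach 2-fold.

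The neuronal cytoskeleton was the list with the largest share of genes higher in brain. Of 41 measured genes, 35 were higher than in the mean of the other tissues and 33 higher than in each, none was lower, and the median difference was 3.53. Counted with values under background raised to 5.36 the median was 2.68. Nefl, the light neurofilament subunit, read 10.57, 10.55 and 10.57 in brain and 0.22 to 6.56 (median 4.99) elsewhere. The heavy subunit gene Nefh, which comes on late as axons thicken, read 6.29, 6.36 and 6.43 in brain and was under background in every other tissue. The internexin gene Ina read 9.95, 9.69 and 10.07 and the microtubule-associated protein gene Map1b 10.63, 10.52 and 10.70, against highest other arrays of 6.70 and 6.92. Mapt, the tau gene, read 10.26, 10.24 and 10.32 in brain and 3.72 to 5.94 (median 4.90) elsewhere, a difference of 5.36. Tuba1a and Stmn1, a tubulin and a stathmin that growing tissues share, were high in all 5 tissues. Tuba1a read 12.74, 12.57 and 12.45 in brain and 8.81 to 11.59 (median 11.19) elsewhere, and Stmn1 read 12.35, 12.18 and 12.19 and 10.99 to 11.70 (median 11.43), a difference of 0.89 that fell short of 2-fold.

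Axon guidance and neural adhesion genes numbered 49, of which 29 were higher in brain and none lower. Cdh8, a classical cadherin of brain regions, read 8.06, 8.49 and 8.34 in brain and at most 2.49 elsewhere. The contactin gene Cntn1 read 10.23, 10.40 and 10.34 against 5.14 to 6.49 (median 5.65), and its relative Cntnap2 8.86, 8.88 and 8.84 against 4.30 to 5.91 (median 4.87). Both were higher in brain than in each tissue without overlap. Ncam1, the neural cell adhesion molecule, read 11.38, 11.24 and 11.25 in brain, 9.87 on average in kidney and 9.15 in stomach, but 3.43 in liver and 2.95 in salivary tissue. L1cam, an axonal adhesion molecule, read 10.59, 10.50 and 10.51 in brain and 6.51 to 8.95 (median 7.87) elsewhere. Reln, the secreted guide of cortical layering, read 9.89, 9.88 and 9.72 in brain and 9.09 on average in liver, so that it was higher in brain than in the other tissues on average by 2.10 without being called against liver.

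Of 42 measured kinase, phosphatase and G protein genes of neurons, 27 were higher in brain and none lower. Gnao1, the alpha subunit of the main brain G protein, read 9.78, 9.83 and 9.83 in brain and 4.19 to 7.02 (median 5.49) elsewhere. Gng3, a gamma subunit, read 10.64, 10.67 and 10.30 and 5.93 to 6.95 (median 6.29), and Rgs7, a regulator of G protein signalling, read 9.22, 9.29 and 9.24 and 2.58 to 6.78 (median 4.64). For each of them the brain arrays stood above all 12 others. The phosphatase subunit gene Ppp2r2b read 8.55, 8.53 and 8.87 in brain, a difference of 5.67 from the other tissues.

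Of 49 measured neuronal transcription factor genes, 35 were higher in brain and 1 was lower. Neurod6, a factor of cortical projection neurons, read 9.33, 9.28 and 9.45 in brain and -1.55 to 2.68 (median 1.05) elsewhere. Counted from the background level its gap to the next tissue was 3.99, since the other arrays carried no reading above it. Bcl11b, a factor of deep cortical layers and striatum, read 8.02, 7.79 and 7.68, Dlx1, of GABA neurons of the ventral forebrain, 7.11, 7.12 and 6.92, and Myt1l, a factor that holds neuronal identity, 9.98, 9.88 and 9.96. All were higher than in each tissue. Eomes, which marks intermediate progenitors of the cortex, read 7.32, 7.11 and 7.0 in brain and 4.56 to 6.01 (median 5.27) elsewhere, a difference of 1.89. Sox11 varied within the brain, at 6.68, 8.92 and 6.84.

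Of 10 measured forebrain factors, 8 were higher in brain and 6 higher than in each tissue. These included Lhx2 at 7.38, 7.23 and 7.52, Fezf2 at 6.48, 6.79 and 6.36, Six3 at 6.79, 6.64 and 6.70 and Tbr1 at 6.32, 5.84 and 6.80. With values under background raised to it, 5 of the 10 were called, and Tbr1 was not among them. Of 25 midbrain and hindbrain factors, 2 were higher and 1 lower. These shares, 8% and 4%, were under the 11.3% and 14.5% of all measured genes. Otx2, which marks forebrain, midbrain and choroid plexus, read 6.51, 6.14 and 6.78 in brain and at most 2.53 elsewhere. En2, of the midbrain and cerebellum, read 5.12, 5.58 and 5.32, and Gbx2, of the anterior hindbrain, 5.04, 4.63 and 4.85, at or under background. Zic4, of the cerebellum, read 7.97, 7.68 and 7.50 in brain and 4.22 to 6.01 (median 5.35) elsewhere. Hox genes, which pattern the hindbrain, spinal cord and trunk, were not called higher in brain: 0 of 29 measured were higher and 9 were lower than the mean of the other tissues, 17 of them lower than kidney. Hoxd8 read 2.40, 4.26 and 5.55 in brain and averaged 9.0 in kidney, and Hoxb5 read 2.62, 2.24 and 2.11 and averaged 7.25 in kidney and 6.95 in stomach. With values under background raised to it, 3 of the 29 were called lower.

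**Figure D3:**
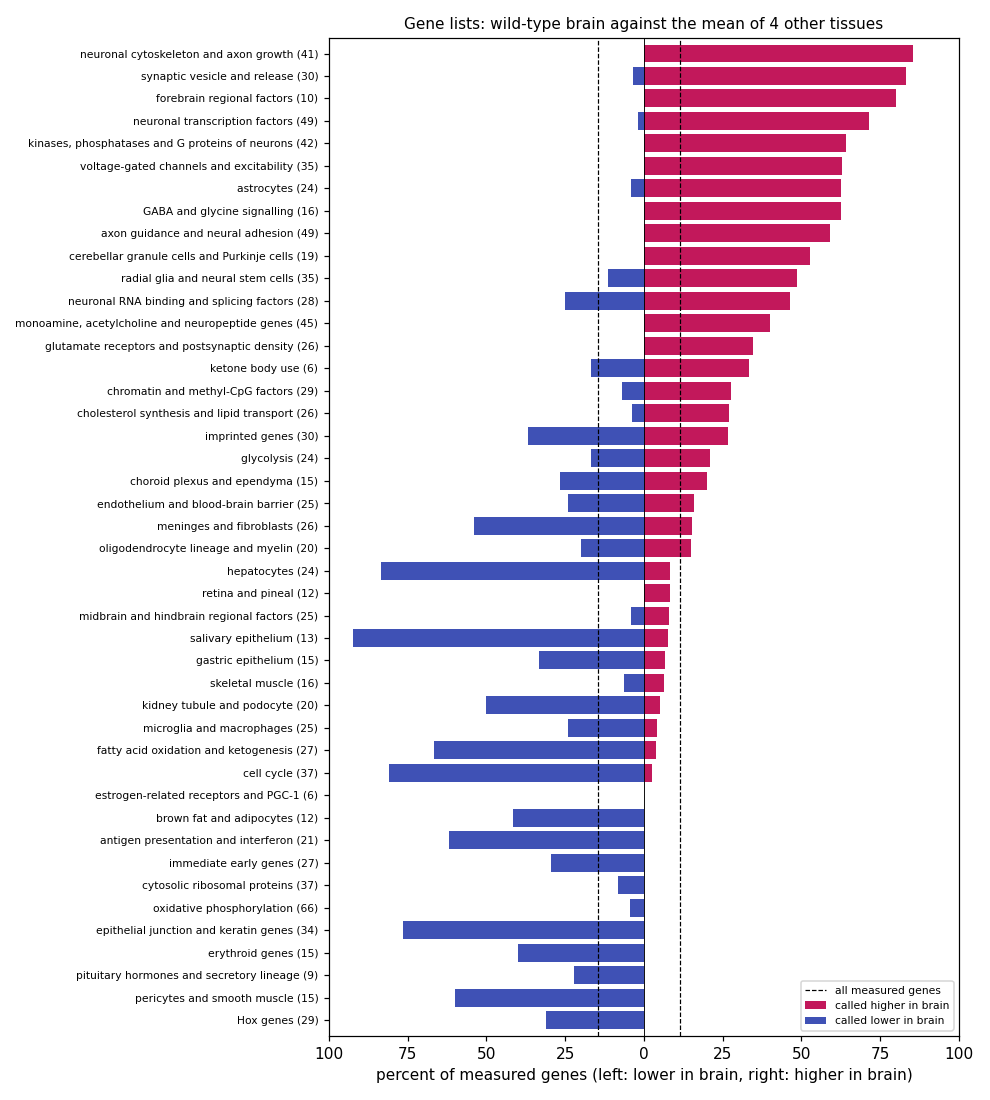
Share of the measured genes of each list that were called lower (blue, left) or higher (red, right) in wild-type brain than in the mean of the 4 other tissues, with the number measured in brackets. Dashed lines mark all measured genes, 14.5% lower and 11.3% higher. Lists of neurons fill the top, and epithelial, liver, salivary and cell cycle lists have the longest bars to the left.

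**Figure D4:**
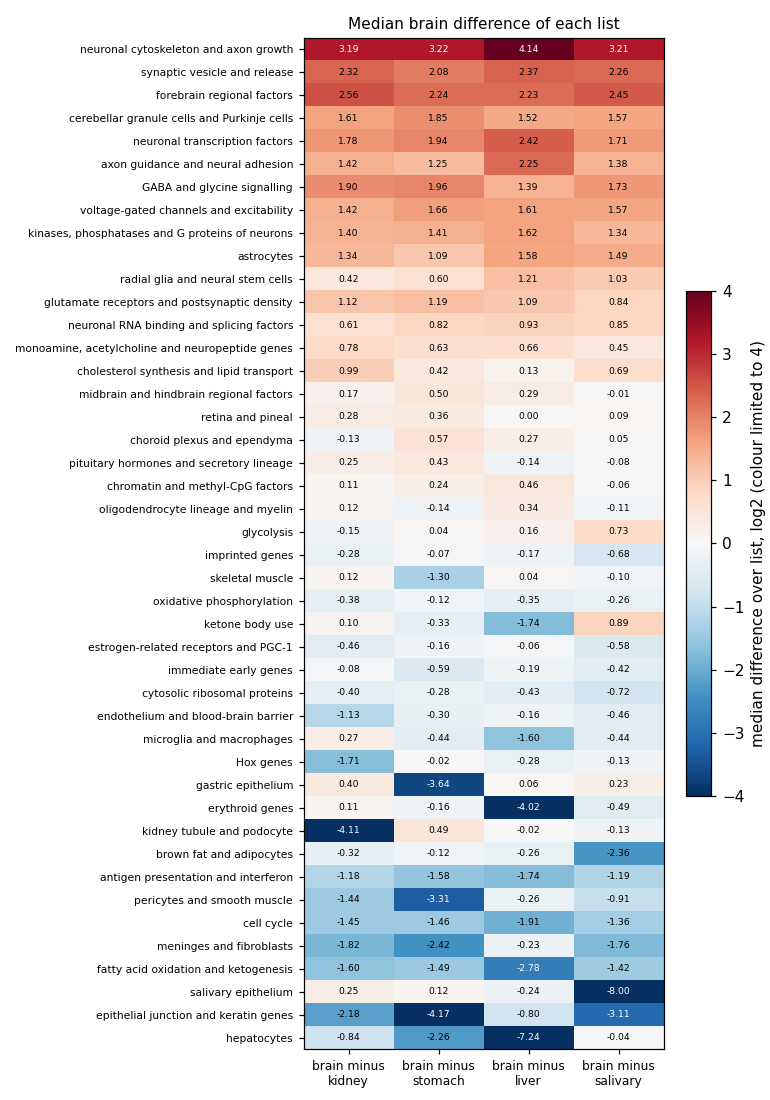
Median over each list of the log2 difference between wild-type brain and each other tissue (3 arrays each), written in each cell, with colour limited to 4 in both directions. The cytoskeleton list has the highest medians, from 3.19 against kidney to 4.14 against liver, and the lists of hepatocytes, kidney, gastric and salivary epithelium have their lowest median against their own organ.

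Regulators known to switch between neurons and other cells changed in opposite directions. Rest, the repressor that keeps neuronal genes silent outside the nervous system, read 6.10, 5.68 and 6.59 in brain and 6.66 to 8.23 (median 7.16) elsewhere. It was lower in brain by -1.09 on average (SE 0.16, limma adjusted p = 1.89e-05), and its brain arrays did not overlap the others. It was not lower than each tissue by the 2-fold rule, and without the brain array of 5.68 the mean difference was -0.87, under 2-fold. Ptbp1, a splicing repressor of non-neuronal cells, read 3.13, 3.39 and 3.02 in brain, under background, and 5.33 to 7.76 (median 6.53) elsewhere, a difference of -3.35 (SE 0.20, limma adjusted p = 1.11e-09). Its neuronal counterpart Ptbp2 read 9.77, 9.50 and 9.64 in brain and 5.67 to 8.14 (median 7.43) elsewhere, a difference of 2.39 (SE 0.11, limma adjusted p = 5.18e-11). The third family member, Ptbp3, read 7.13, 7.39 and 7.35 in brain and 8.86 to 9.70 (median 9.42) elsewhere. Ptbp1 and Ptbp3 were lower, and Ptbp2 higher, than in each of the 4 tissues.

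Of 28 measured RNA-binding and splicing factor genes, 13 were higher in brain and 7 lower. Those higher were factors of neurons: Elavl3 read 10.15, 10.15 and 10.27 in brain and 3.33 to 6.79 (median 4.80) elsewhere, Celf4 10.25, 10.13 and 10.20 and 4.86 to 5.96 (median 5.49), and Rbfox1 9.50, 9.55 and 9.60 and 2.26 to 5.47 (median 4.90). Nova1, the neuronal splicing factor, read 8.19, 8.13 and 8.03 in brain. Rbfox3, which encodes the nuclear antigen NeuN of mature neurons, read only 5.44, 5.21 and 5.75, near background, and was no longer called when lower values were raised to that level. The lowest members were the epithelial splicing regulators. Esrp1 read 1.05, 0.60 and 0.30 in brain, 9.65 on average in salivary tissue and 1.43 in liver, and Esrp2 read 2.06, 2.43 and 4.54 in brain and 6.31 to 7.82 (median 7.23) elsewhere.

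Chromatin genes moved less. Of 29 measured, 8 were higher and 2 lower, with a median of 0.04. Subunits of the BAF remodelling complex that neurons use in place of progenitor forms were among those higher. Actl6b read 7.88, 7.88 and 8.03 in brain and 4.57 to 5.70 (median 5.12) elsewhere, and Dpf1 read 7.58, 7.37 and 7.49 and 2.35 to 4.24 (median 3.18). Their progenitor counterparts Actl6a and Phf10 differed by -0.88 and -0.57, under 2-fold (Actl6a by -1.02 without brain replicate 1 or 2), and stayed well above background at 7.89, 7.90 and 7.07 and 7.81, 7.89 and 7.73. Among histone deacetylases, Hdac2 was higher in brain by 1.68 and Hdac1 differed by -0.77, which was not called.

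**Figure D5:**
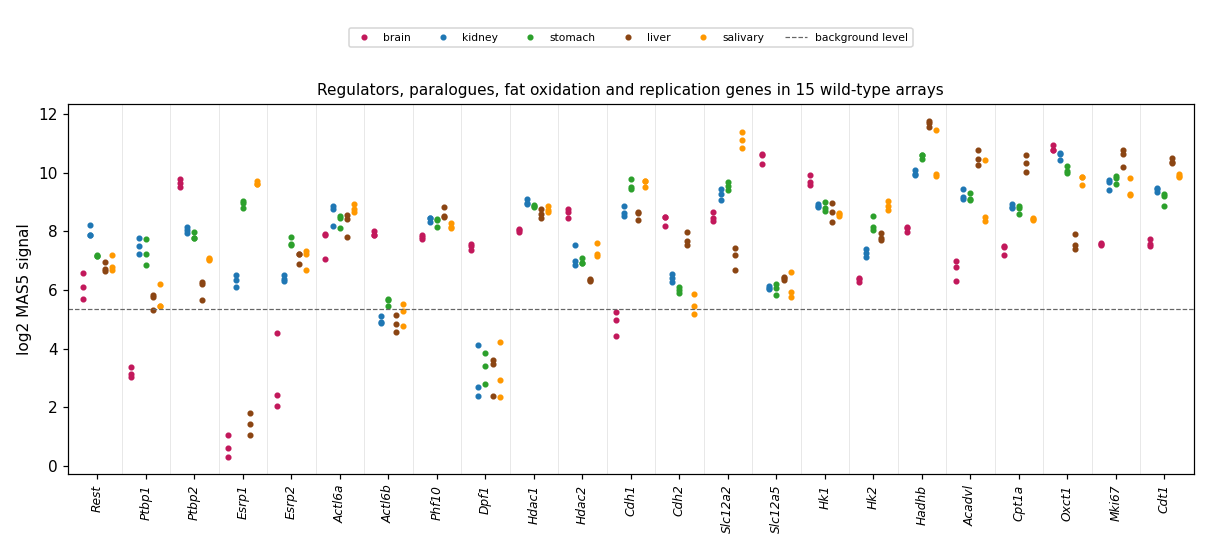
Log2 MAS5 signal of regulators, related gene pairs, and genes of fat oxidation and replication on the 15 wild-type arrays, each point 1 array, coloured by tissue, with the background level of 5.36 dashed. Ptbp1, Esrp2 and Cdh1 have their brain points (red) below all others, and Ptbp2, Actl6b, Dpf1 and Slc12a5 above all others.

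The sequences before the start sites of genes higher in brain than in each tissue were searched for the element that Rest binds, called RE1. Promoters of 300 bases, from 250 before to 50 after the start in RefSeq annotation of GRCm38.p6, were available for 727 of these genes. The letters TTCAGCACC, the left part of RE1, were present on either strand in 8 of the 727 (1.10%), in 48 of 9887 measured genes with a promoter (0.485%), in 117 of all 27025 promoters (0.433%) and in 2 of 570 genes lower than in each tissue (0.351%). The whole element, with GGACAG 2 bases after the left part, was in 0 of the 727 and in 1 of the 9887. Such a match is a description of the letters and not evidence of binding. Stretches are shown for some of the 8 genes, all with the match before the start. They hold 20 bases on either side, or fewer at the edge of the window or at the start. They read 5' to 3' on the strand of the gene, with the matched letters in capitals.
Dner promoter, chr1:84696343-84696391, minus strand: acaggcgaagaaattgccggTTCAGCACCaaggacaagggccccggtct
Celsr3 promoter, chr9:108825898-108825946, plus strand: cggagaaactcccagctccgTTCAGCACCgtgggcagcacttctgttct
Nsg2 promoter, chr11:32000479-32000527, plus strand: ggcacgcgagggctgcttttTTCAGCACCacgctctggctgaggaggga
Cdh9 promoter, chr15:16728873-16728914, plus strand: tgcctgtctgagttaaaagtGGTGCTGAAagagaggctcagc
Syn1 promoter, chrX:20921122-20921168, minus strand: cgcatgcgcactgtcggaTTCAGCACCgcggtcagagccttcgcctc
In Cdh9 the match lies on the other strand, so that the capitals read GGTGCTGAA. Dner encodes a transmembrane ligand of neurons and read 10.47, 10.51 and 10.59 in brain and -1.77 to 5.51 (median 3.72) elsewhere. Celsr3, a cadherin of axon tracts, read 7.19, 6.82 and 7.61 and 3.79 to 5.40 (median 4.82), and Nsg2, an endosomal protein of neurons, read 11.42, 11.43 and 11.21 and 5.02 to 7.88 (median 6.55). Cdh9, a cadherin of defined synapses, read 7.20, 7.38 and 7.47 against 1.37 to 4.66 (median 3.19), and Syn1, the vesicle phosphoprotein synapsin, 8.61, 8.52 and 8.68 against 5.38 to 7.16 (median 6.40). The letters TGACGTCA, the site of the CREB family, were in 35 of the 727 promoters (4.81%) and 2.99% of those of measured genes.

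Radial glia and astrocyte genes were raised in part. Of 35 measured genes of radial glia and neural stem cells, 17 were higher in brain and 4 lower. Ttyh1 read 8.49, 8.67 and 8.50 in brain and 0.66 to 4.18 (median 3.31) elsewhere, the phosphatase gene Ptprz1 10.20, 9.78 and 10.13 and 4.72 to 6.93 (median 5.87), and the membrane protein gene Gpm6b 11.02, 10.93 and 10.83 and 4.10 to 8.42 (median 7.38). Sox2, a factor of neural and of foregut progenitors, read 8.67, 8.68 and 8.85 in brain and averaged 8.13 in stomach and 6.96 in salivary tissue. Nes and Vim, intermediate filament genes of progenitors and mesenchyme, differed by 0.32 and -0.39, which were not called. Prom1, a membrane protein of stem cells and of epithelial surfaces, was lower in brain, at 7.18, 7.33 and 7.05 against 7.75 to 11.13 (median 9.83). Among Notch targets, Hes5 read 6.11, 5.95 and 6.02 in brain and was under background elsewhere (no call with such values raised to 5.36), and Hes1 read 6.66, 6.40 and 6.09 in brain and 6.83 to 8.52 (median 8.22) elsewhere, a difference of -1.58.

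Of 24 measured astrocyte genes, 15 were higher in brain and 1 lower. Slc1a3, a glutamate transporter shared with radial glia, read 7.90, 7.52 and 7.62 in brain and 1.69 to 5.84 (median 4.40) elsewhere. Mlc1, a membrane protein of astrocyte endfeet, read 6.37, 6.65 and 6.37 in brain and was under background on every other array, as was Mt3, a brain metallothionein, at 6.69, 6.75 and 6.59 in brain. Aldoc, the brain aldolase, read 9.95, 9.90 and 9.68 in brain and 6.52 to 8.66 (median 8.09) elsewhere. Gfap, the filament of mature astrocytes, was only slightly above background, at 5.96, 6.09 and 6.04, and was not called against each tissue. Its mean difference of 1.08 was 0.95 without stomach replicate 3 and was not called with values under background raised to it. Agt, the angiotensinogen gene of liver and astrocytes, was the lower member, at 2.97, 4.03 and 4.02 in brain and 10.75 on average in liver.

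Of 20 measured genes of the oligodendrocyte lineage and myelin, 3 were higher, all than in each tissue, and 4 lower. Their shares, 15% and 20%, stood close to the 11.3% and 14.5% of all measured genes. Those higher were Olig1, Olig2 at 6.26, 6.22 and 6.25 and Nkx2-2 at 5.55, 5.36 and 5.63. Other tissues were under background for all of them, and Olig2 and Nkx2-2 were not called when such values were raised to 5.36. Among those not called, Sox10, a lineage factor, read 6.13, 6.04 and 6.38 in brain and 5.63 to 6.95 (median 6.26) elsewhere, and Pdgfra, the growth factor receptor of precursors and of mesenchyme, read 8.27, 8.19 and 8.32 and 4.90 to 9.17 (median 8.64). Their differences from the mean of the other tissues were -0.06 and 0.36. Mbp, myelin basic protein, read 7.40, 7.41 and 7.48 in brain and 6.48 to 7.71 (median 6.98) elsewhere, and Mag, Mog and Mobp read 4.92 ± 0.78, 0.09 ± 0.48 and 1.03 ± 0.18 (SD, n = 3), with means under background. Myrf, the activator of myelin genes that stomach also makes, read 4.25, 2.69 and 3.96 in brain and averaged 9.05 in stomach.

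Cells of blood origin, vessels and connective tissue gave a different picture. Of 25 measured genes of microglia and macrophages, 1 was higher in brain and 6 lower, 17 being lower than liver. The shares were 4% and 24%, against 11.3% and 14.5% of all measured genes. With liver left out of the mean, 2 were lower, and with values under background raised to it, 4. In the arrays without Esrrg, 11 were lower. The microglial receptor genes Cx3cr1 and P2ry12 read 7.51, 7.59 and 7.23 and 5.93, 5.74 and 5.68 in brain, differing from the other tissues by 0.48 and 0.75, short of 2-fold. Csf1r, the growth factor receptor of macrophages, read 9.42, 9.46 and 9.48 in brain and 9.69 to 11.48 (median 9.96) elsewhere. Ptprc, the CD45 gene of all white cells, was lower in brain than in each tissue, at 4.97, 5.52 and 5.24 against 6.02 to 8.97 (median 6.95). Of 21 genes of antigen presentation and interferon response, 0 were higher and 13 lower, 9 of them than in each tissue. H2-K1, a class I histocompatibility gene, read 7.24, 7.23 and 7.51 in brain and 8.19 to 10.56 (median 9.77) elsewhere, and its partner B2m read 8.28, 8.17 and 8.38 and 9.18 to 11.36 (median 9.84). With values under background raised to it, 8 of the 21 were called lower.

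Of 25 measured genes of endothelium and the blood-brain barrier, 4 were higher in brain and 6 lower. The shares were 16% and 24%, against 11.3% and 14.5% of all measured genes. Slco1c1, a thyroid hormone transporter of brain capillaries, read 7.78, 7.46 and 7.59 in brain and at most 2.64 elsewhere, a difference of 5.72 (SE 0.36, limma adjusted p = 1.43e-09). Cldn5, the tight junction protein of the blood-brain barrier, read 7.74, 7.86 and 7.83 in brain and 7.88 on average in kidney, and its difference of 1.04 from the mean of the other tissues was 0.99 without salivary replicate 1 or 2. Plvap, which forms the diaphragms of leaky vessels, read 5.40, 5.64 and 4.66 in brain and 6.29 to 9.0 (median 7.19) elsewhere, and Eng, endoglin, read 4.91, 4.97 and 5.64 and 6.18 to 7.76 (median 7.04). Both were lower in brain than in each tissue. Of 15 pericyte and smooth muscle genes, 0 were higher and 9 lower, led by Tagln at 2.32, 4.92 and 2.87 in brain and 11.27 on average in the muscular stomach. Of 26 meningeal and fibroblast genes, 4 were higher and 14 lower. The fibrillar collagen genes Col3a1 and Col5a1 read 8.65, 8.54 and 8.32 and 6.60, 6.67 and 6.24 in brain, against 9.56 to 12.10 (median 11.42) and 8.33 to 10.38 (median 9.47) elsewhere. Ttr, the transthyretin gene of choroid plexus and liver, read 12.28, 12.06 and 12.08 in brain, 12.76 on average in liver and 5.64 in salivary tissue.

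Epithelial genes were among those lowest in brain. Among the 15 genes with the widest gap below all other tissues were 5 of epithelia, the keratin genes Krt8 and Krt18, the desmosome gene Dsp, the tight junction gene F11r and the cadherin gene Cdh1. Krt18 read 5.01, 4.99 and 4.83 in brain and 8.87 to 10.89 (median 9.82) elsewhere, a difference of -4.87 (SE 0.09, limma adjusted p = 5.93e-15). Dsp, desmoplakin, read 5.48, 5.70 and 5.49 and 8.83 to 10.75 (median 9.84), and F11r read 5.52, 5.02 and 5.45 and 8.85 to 9.29 (median 9.01). In all of them the highest brain array lay more than 3 under the lowest other array on the log2 scale. The 15 were ranked only among genes called lower in brain than in each tissue with no overlap of arrays. Of 34 measured epithelial junction and keratin genes, 0 were higher in brain and 26 lower, 14 than in each tissue, with a median of -2.33. Cdh1, the epithelial cadherin, read 5.24, 4.42 and 4.97 in brain and 8.39 to 9.79 (median 9.16) elsewhere, and Cdh2, the neural cadherin, read 8.48, 8.18 and 8.49 and 5.19 to 7.97 (median 6.18), a difference of 1.97.

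The remaining 10 of the 15 were varied. Adh1, an alcohol dehydrogenase that also oxidises retinol, read 5.44, 5.52 and 6.57 in brain and 9.28 to 12.30 (median 10.40) elsewhere. Fabp4, a fatty acid carrier of fat cells and capillaries, read 3.08, 2.18 and 0.20, under background, and 8.73 to 12.25 (median 9.60). Of its 3 other probe sets tested, 1 was called lower than in each tissue. Neat1, the long noncoding RNA that builds paraspeckles, read 2.26, 1.97 and 2.46 in brain and 7.96 to 10.23 (median 9.01) elsewhere, a difference of -6.85. Since its brain values were under background, the gap counted from 5.36 was 3.0. Vamp8, a fusion protein of secretory epithelia and endosomes, read 5.81, 6.28 and 5.93 and 8.80 to 10.07 (median 9.61). Col14a1, Gsn, Anxa4, Selenbp1, Eif4ebp1 and Trim25 had gaps of 2.75 to 3.23 below the lowest other tissue. Only 2 of 4 other probe sets of Gsn and 1 of 2 of Eif4ebp1 were called likewise, and all those of Col14a1, Anxa4, Selenbp1 and Trim25.

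Genes of cell division were lower in brain as a group. Of 37 measured cell cycle genes, 30 were lower than in the mean of the other tissues, 1 was higher, and 23 were lower than in each, with a median of -1.57. Without liver, the organ that forms blood, 27 were lower. Mki67, the proliferation antigen, read 7.56, 7.53 and 7.62 in brain and 9.24 to 10.79 (median 9.80) elsewhere, a difference of -2.28 (SE 0.13, limma adjusted p = 6.2e-10). Tk1, thymidine kinase, read 3.78, 5.06 and 3.84 and 7.25 to 8.61 (median 8.0), and Cdt1, a replication licensing factor, 7.51, 7.75 and 7.56 and 8.86 to 10.49 (median 9.68). All 3 were lower in brain than in each tissue, though Mki67 and Cdt1 remained above background, as did the S phase gene Pcna at 9.74, 9.58 and 9.71. The member higher in brain was Cdkn1b, the cell cycle inhibitor p27, at 7.61, 7.69 and 7.28 against 5.99 to 7.03 (median 6.52), a difference of 1.01. Leaving out 1 array brought it under 2-fold in 5 cases (replicate 1 or 2 of brain, 2 of kidney, 3 of stomach or 1 of liver), with values of 0.93 to 0.99, and it was -0.02 in the arrays without Esrrg and 0.10 without their brain replicate 1. In those arrays 21 of the 37 genes were lower in brain than in the mean of the other tissues and 7 lower than in each, against 30 and 23 in wild type. Without brain replicate 1 of those arrays the counts were 22 and 8.

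Promoters of the cell cycle list were searched for TTTGGCGC, a form of the E2F site, on either strand. It was present in 4 of 29 with a promoter (13.8%), in 97 of 9887 measured genes (0.981%), in 9 of 570 lower in brain than in each tissue (1.58%) and in 0 of 727 higher. The 4 genes were Cdt1, Mcm3, Mcm5 and Mcm6. The matches in the genes of the replicative helicase subunits Mcm5 and Mcm6 are shown 5' to 3' on the strand of the gene, with the matched letters in capitals (GCGCCAAA where the site is on the other strand).
Mcm6 promoter, chr1:128359788-128359835, minus strand: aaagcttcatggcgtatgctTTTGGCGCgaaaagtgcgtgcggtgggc
Mcm6 promoter, chr1:128359725-128359772, minus strand: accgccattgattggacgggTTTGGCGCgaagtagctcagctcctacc
Mcm5 promoter, chr8:75109340-75109387, plus strand: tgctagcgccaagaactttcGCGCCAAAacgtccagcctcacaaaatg
Mcm6 read 6.74, 7.33 and 7.35 in brain and 8.28 to 9.46 (median 8.80) elsewhere, and Mcm5 read 4.73, 5.04 and 4.74 and 6.40 to 7.0 (median 6.51). Mcm3 differed by -1.85. All 4 genes were lower in brain than in each tissue.

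Fuel metabolism was lower in brain for fat and mixed for glucose. Of 27 measured genes of fatty acid oxidation and ketogenesis, 18 were lower and 1 was higher than in the mean of the other tissues, and 16 were lower than in each. The median was -1.83, and against liver -2.78. Cpt1a, which admits fatty acids to mitochondria, read 7.49, 7.47 and 7.20 in brain and 8.39 to 10.61 (median 8.83) elsewhere. Hadhb and Acaa2, enzymes of the last steps of beta oxidation, read 8.11, 8.14 and 7.97 and 7.23, 7.54 and 7.22 in brain, against 9.88 to 11.76 (median 10.53) and 9.27 to 11.96 (median 10.34). No brain array overlapped another tissue for any of them, and all stayed above background in brain. Without the salivary array of high Ucp1, 11 genes were lower than in each tissue. The summed brown fat markers were 24.4 to 30.2 in brain, with 0 of 4 above background, 469 to 526 in liver, and 1515 to 11561 in salivary tissue, and their part in the result was not tested. Fabp3, a fatty acid binding protein, was the member higher in brain, at 8.18, 8.33 and 8.28 against 3.65 on average in liver and 8.63 in kidney.

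Of 6 genes of ketone body use, 2 were higher in brain than in the mean of the other tissues. None was higher than in each, and 0 were called higher with liver left out of the other tissues. Oxct1, which activates acetoacetate in tissues that burn ketone bodies, read 10.77, 10.77 and 10.96 in brain and averaged 10.59 in kidney and 7.61 in liver. Aacs, which turns acetoacetate to lipid synthesis, read 6.88, 6.97 and 7.11 in brain and 4.44 to 6.61 (median 5.84) elsewhere. The ketone transporter gene Slc16a7 was lower, at 4.46, 4.52 and 4.97 against 4.18 to 8.97 (median 7.27).

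Of 24 measured genes of glycolysis, 5 were higher and 4 lower, with a median of -0.01. The shares were 20.8% and 16.7%, against 11.3% and 14.5% of all measured genes. Among those higher were isoforms known from brain. Eno2, the neuron-specific enolase, read 7.39, 7.48 and 7.55 in brain and was under background elsewhere, Pfkp, the platelet-type phosphofructokinase, read 9.28, 9.29 and 9.56 against 5.89 to 7.86 (median 6.95), and the neuronal glucose transporter gene Slc2a3 read 9.65, 9.72 and 9.67 against 6.77 to 9.15 (median 7.29). The hexokinase genes differed in opposite directions. Hk1, the brain form, differed by 0.99, just under 2-fold (1.02 without brain replicate 1), and Hk2, the form of muscle and growing cells, by -1.69, which was called. Of 66 genes of oxidative phosphorylation, 0 were higher and 3 lower, with a median of -0.29, and of 37 cytosolic ribosomal protein genes 3 were lower, with a median of -0.45. Esrrg itself read 5.92, 6.22 and 5.89 in brain and 5.93 to 6.64 (median 6.21) elsewhere and was not called (limma adjusted p = 0.108). Of 26 genes of cholesterol synthesis and lipid transport, 7 were higher, among them the desaturase gene Scd2 at 11.07, 11.12 and 11.13 against 7.73 to 10.14 (median 9.93), and 14 were higher in the arrays without Esrrg, with or without their brain replicate 1.

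Imprinted genes, expressed from the copy of a single parent, split into both directions. Of 30 measured, 8 were higher in brain and 11 lower. Nnat, neuronatin, read 10.23, 10.43 and 10.39 in brain and 3.83 to 6.63 (median 5.55) elsewhere, a difference of 4.95. Ndn, necdin of the Prader-Willi region, read 11.82, 11.67 and 11.69 in brain and averaged 11.22 in salivary tissue, and its neighbour Magel2 read 7.75, 7.44 and 7.51 against 5.17 to 7.19 (median 5.63). The growth regulators were lower: Igf2 read 9.12, 9.09 and 8.97 in brain and 9.64 to 12 (median 10.67) elsewhere, Grb10 8.87, 8.91 and 8.77 and 9.96 to 11.37 (median 10.61), and Dlk1 6.66, 6.55 and 6.11 and 6.62 to 12.05 (median 8.43). Of these, only Grb10 was lower than in each tissue. Of 27 immediate early genes, 0 were higher and 8 lower, for example Ier2 at 5.56, 5.81 and 5.29 against 6.58 to 7.75 (median 7.37).

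Genes known from each organ stood at the low end of its comparison, when called genes were ordered by their difference with values under 5.36 raised to it. Against kidney, the lowest in that order were Fbp1, an enzyme of glucose synthesis, Cdh16, the kidney cadherin, Fxyd2, a sodium pump subunit, and Gpx3, plasma glutathione peroxidase. Fbp1 read 5.65, 5.59 and 5.26 in brain and averaged 11.36 in kidney, a difference of -5.86 (SE 0.66, limma adjusted p = 1.95e-06). Against stomach they were Bpifb1, the gastrokine genes Gkn1 and Gkn2, and the pepsinogen gene Pga5, which read 5.34, 5.60 and 5.31 in brain and averaged 12.42 in stomach. Against liver they were Apoa1, Ahsg, Afp and Serpina1b, secreted plasma proteins, with Afp at 4.44, 2.98 and 4.42 in brain and 12.99 in liver. Against salivary tissue they were Bpifa2, Car6, Prol1 and Mucl2, secreted proteins of saliva, with Car6 at 4.60, 3.94 and 4.67 in brain and 12.50 in salivary tissue. Brain readings of nearly all of these were under background, so that the size of these differences rests in part on values that carry no order.

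In the same order, the highest against kidney were Stmn3, Fabp7, Stmn2 and Gap43, against stomach Gpm6a, Elavl2, Dcx and Dner, against liver Stmn3, Stmn2, Fabp7 and Ints6, and against salivary tissue Ttr, Gpm6a, Ncam1 and Pkia. Ints6, a subunit of the Integrator complex that processes small nuclear RNA, read 12.20, 11.91 and 12.02 in brain and averaged 5.77 in liver, a difference of 6.27, but its other probe set was not called. Ttr was not higher in brain than in every organ, since it averaged 12.76 in liver. Ncam1, the neural cell adhesion molecule, was called higher than each tissue, with the smallest difference, 1.42, from kidney.

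Some genes were higher in brain and 1 other organ than in the remaining 3, which could still lie above background. With kidney, brain shared Calb1, the phosphatase gene Ptpro of podocytes and neurons, Rprm and the neurotensin gene Nts. Ptpro averaged 9.27 in brain and 8.46 in kidney, against 5.97 at most in the remaining tissues. With stomach it shared Tac1, Sparcl1, the brain creatine kinase gene Ckb and the peptide gene Grp. Ckb averaged 10.22 in brain and 9.82 in stomach, against 7.63 at most in the rest. With liver it shared Sla, Tmcc2, the leukocyte actin regulator gene Coro1a and Ttr. By the probe set ranked here, Ttr averaged 10.67 in brain, 12.58 in liver, 8.77 in stomach and 7.89 in kidney. By its brightest probe set it averaged 12.14 in brain and 11.21 in stomach. With salivary tissue brain shared Tmeff2, the imprinted noncoding RNA Meg3, the guidance receptor gene Epha5 and Plppr4. Plppr4 averaged 9.31 in brain and 7.90 in salivary tissue against 5.99 at most elsewhere. For these 16 genes the lower of the pair stood 1.82 to 3.43 above the remaining 3 tissues, values under background being raised to it.

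Within the brain group the widest spread over the 3 arrays belonged to Xist, the noncoding RNA made in female cells, at 11.19, 11.28 and 6.67 by 1 probe set. By another probe set, Xist was low on the third replicate of all 5 wild-type tissues, at 4.27 to 4.82 against 10.74 to 11.17 on the others. Abcc5, an export pump, read 7.07, 9.24 and 9.51, Sox11, a factor of immature neurons, 6.68, 8.92 and 6.84, and Ywhaz 7.11, 8.57 and 8.71. The other 6 of the 10 widest were Srsf2, Rai1, Sf3b6, Farsa, Chmp1a and Faap20, with ranges of 1.35 to 1.77.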

How the data were processed

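RNA of wild-type tissues was measured on Affymetrix MOE430A arrays. The deposited values are MAS5 signals on a log2 scale, per the submitters' processing notes and the values themselves. No version or setting is named there. They were used with no further normalization. Of 22690 probe sets, 64 array controls were left out. In the supplied annotation, 20380 probe sets had 1 gene symbol, 691 more than 1 and 1555 no symbol. The 16753 probe sets with at least 1 of 5 tissue means at or above 5.36, the 40th percentile of all values of the 15 arrays, were tested with limma 3.58.1 in R 4.3.3 (lmFit, eBayes with trend), with 1 mean per tissue and Benjamini-Hochberg adjustment over all of them. A call needed an adjusted p under 0.05 and a difference of at least 2-fold. Steps were tested on simulated data.

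Lists held 1274 genes, of which 1075 matched, each shown by its brightest probe set and described by counts without a set test. The members and lists were chosen with earlier results of these data known. Named by rule were 25 genes highest and 15 lowest against all tissues, among those called against each tissue with no overlap of arrays. Also named were 4 each way per tissue, 4 shared with each tissue and 10 of widest brain range. Up to 6 highest and 4 lowest of each list and the cell type markers were named too. Chosen after their values were seen were Acta1, B2m, Camk2a, Cdh2, Cdh9, Cdt1, Celsr3, Chga, Col1a2, Cpt1a, Eomes, Gh, Grb10, H2-K1, Hadhb, Hes5, Ina, L1cam, Mcm3, Mcm5, Mcm6, Mobp, Nefh, Nova1, Npy, Nsg2, Pclo, Pcna, Phf10, Pomc, Ptbp2, Reln, Scn3b, Slc12a5, Slc16a1, Slc2a1, Sst, Stx1a, Syn1, Syp, Tuba1a, Vim and Zic4. The labels do not say whether replicate numbers pair samples across tissues. Xist, low on replicate 3 of every wild-type tissue, follows the number. Over all probe sets tested, deviations of same-numbered arrays correlated at -0.04 to 0.12, and those of other arrays at -0.10 to 0.09, so no block was used for the results given. Alternatives changed the scale, filter, normalization, test, covariates, arrays and tissues.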

Additional observations from a re-analysis of the deposited data

Results flagged for a closer look

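The contrast of brain with the mean of the other tissues differed between wild-type arrays and arrays without Esrrg for 8 of the genes shown here, by limma's test of the interaction over all 30 arrays (adjusted p under 0.05 for 116 of 16753 probe sets). Agt differed by -2.46 (wild type -3.37, null -0.90, adjusted p = 0.00925), and Slc22a18, an imprinted transporter gene, by -2.13 (-3.94 and -1.81, adjusted p = 0.0159). Krt8 differed by -1.56 by 1 of its probe sets (-8.89 and -7.33, adjusted p = 0.0156), with brain values under background. Among cell cycle genes, Ccna2 differed by -0.78 (-1.97 and -1.19, adjusted p = 0.0302), Cdk1 by -0.81 (-1.66 and -0.85, adjusted p = 0.0159), Mcm5 by -1.14 (-1.76 and -0.62, adjusted p = 0.046), Ccnd2 by -0.67 (0.04 and 0.71, adjusted p = 0.046) and Cdkn1c by -0.85 (-1.84 and -0.98, adjusted p = 0.0476). Xist was low on replicate 3 of every wild-type tissue and on replicate 1 of every null tissue. Null brain replicate 1 stood apart, with Gh at 11.31 against 4.90 and 4.73 on the other null brain arrays and Acta1 at 8.92 against 5.38 and 4.56. Without it, an alternative chosen after seeing the data, 184 probe sets passed, and of these 8 genes Ccna2 (-0.75, adjusted p = 0.0504) and Cdkn1c (-0.70, adjusted p = 0.105) did not. All 3 null salivary arrays but only replicate 3 of the wild-type ones were high for Ucp1, at 11.02 to 12.75 and 12.14. Without the salivary arrays of both genotypes, also chosen after seeing the data, 222 probe sets passed, and Agt, Slc22a18 and Krt8 passed, at -2.33, -2.26 and -1.61. The cell cycle genes did not: Ccna2 gave -0.63 (adjusted p = 0.0655), Ccnd2 -0.56 (0.0827), Cdk1 -0.58 (0.08), Cdkn1c -0.79 (0.075) and Mcm5 -1.03 (0.0585). No group has 4 arrays, so no rule for outlying arrays was applied. The arrays set apart here were picked by the values of single genes.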

How the results depend on the processing

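The 3 arrays per tissue limit precision, and values under the background level have no order. By adjusted p alone, probe sets higher and lower in brain numbered 5440 and 5549 against the mean of the other tissues, 4132 and 4851 against kidney, 5202 and 4757 against stomach, 6251 and 4846 against liver, 4714 and 5036 against salivary tissue, and 2590 and 2173 against each. With limma's treat against a 2-fold difference they were 1537 and 1559, 1137 and 1420, 1269 and 1666, 2368 and 1907, 1445 and 1459, and 714 and 425. A filter on the mean over 15 arrays, which removes genes high in brain alone, left 1575 higher than the mean, 1281 than kidney, 1560 than stomach and 778 than each. With it, 13 neuronal transcription factors in place of 35 were called higher, 4 GABA and glycine genes in place of 10, 3 glutamate genes in place of 9 and 1 forebrain factor in place of 8. Channel and excitability genes called higher numbered 11 in place of 22, and monoamine, acetylcholine and neuropeptide genes 10 in place of 18. A gene that passed the main filter through brain alone could only be called higher. Those lower than each were 590 on the log2 scale of the linear value plus 16 and 551 with values under background raised to it. A fit of 2 groups gave 1707 lower than the mean, and 3 hepatocyte genes in place of 20 called lower, and 10 were called lower without liver. Leaving out 1 array gave 2409 to 2466 higher and 2561 to 2683 lower than the mean, 1984 to 2094 and 2491 to 2569 against kidney, 2359 to 2496 and 2625 to 2690 against stomach, 3636 to 3835 and 2839 to 2914 against liver, 2540 to 2628 and 2546 to 2585 against salivary tissue, and 1265 to 1333 and 893 to 932 against each. With the replicate block, 2433 were higher and 2689 lower than the mean, and 1332 and 923 than each. Cdkn1b was reversed in the null arrays, at -0.02. The median difference against liver was 0.12, and 0.04 after quantile normalization. Other called values of named genes kept their direction under the alternatives run.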

Other observations

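Of 9 measured pituitary genes, 0 were higher in brain and 2 lower than in the mean of the other tissues, and Pomc, the precursor of several pituitary and hypothalamic peptides, read 5.96, 6.79 and 6.25 in brain and 5.58 to 6.50 elsewhere. Of 12 measured retinal and pineal genes 1 was higher, and of 16 skeletal muscle genes 1 was higher and 1 lower. The shares were 8.33% higher for the former and 6.25% each way for the latter. Over all measured genes they were 11.3% higher and 14.5% lower. Linear signals of 4 muscle markers summed to 77.1 to 94.1 in brain, with 0 above background. Of 15 erythroid genes, 6 were lower in brain than in the mean, a larger share than the 14.5% of all measured genes. By single tissue, 10 were lower than liver, 3 than kidney, 3 than stomach and 1 than salivary tissue. With liver left out of the mean, 3 were lower. Alas2, which starts heme synthesis in red cells, read 2.77, 3.11 and 3.74 in brain against 5.36 to 10.67 elsewhere.

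Some transporters that newborn brain is known to use did not set it apart on these arrays. Slc2a1, the glucose transporter of the blood-brain barrier, read 8.54, 8.34 and 8.04 in brain and 6.94 to 8.74 elsewhere, a difference of 0.27 (limma adjusted p = 0.13). Slc16a1, which carries lactate and ketone bodies, read 7.86, 7.49 and 7.87 in brain and averaged 10.49 in liver.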
